A study of Homo sapiens with 16 samples.

Results

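The 7 genes of fatty acid handling that are known as targets of the nuclear receptor PPARG were described across the 16 libraries: FABP4, FABP5, PLIN2, ACSL5, ANGPTL4, PDK4 and CPT1A. They were taken by gene name, and are 7 of the 58721 genes in the count and TPM tables. All 7 were in the tables, but 4 passed the low-count filter in RT112 (FABP4, FABP5, ACSL5 and CPT1A) and 5 passed it in SCaBER (FABP5, PLIN2, ACSL5, ANGPTL4 and CPT1A). PDK4 passed in neither line.

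The libraries came from 2 human bladder cancer cell lines, the Luminal line RT112 (LumP subgroup, grown in RPMI with serum) and the Basal line SCaBER (Ba/Sq subgroup, of squamous origin, grown in DMEM with serum), so line and medium cannot be told apart. Each line received 1 of 4 small interfering RNAs (siRNAs) at 10 nM in a lipid transfection reagent, siFOXA1.1 or siFOXA1.2 against the pioneer transcription factor FOXA1, or the non-targeting siControl.1 or siControl.2. Every siRNA had 2 libraries per line, labelled as experiment batch replicates 1 and 2, and no untransfected cells were among the samples analysed here. The libraries were 3′ mRNA libraries, which read the end of a transcript, and levels are given as CPM, counts scaled to the library total, or as the deposited TPM, which the authors scaled for gene length too.

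PPARG is a fatty acid sensor that binds DNA as a partner of a retinoid X receptor (RXR), classically at 2 copies of the hexamer AGGTCA with 1 base between them. In fat cells it switches on the uptake, binding and storage of fatty acids, and in urothelium it is known for its part in the Luminal programme, beside FOXA1 and GATA3. PPARA and PPARD bind the same kind of element, and several of the 7 genes respond to all 3 receptors in other tissues. The encoded proteins carry fatty acids through the cytosol (FABP4, FABP5), activate them to acyl-CoA (ACSL5), coat the droplets in which they are stored (PLIN2), block lipoprotein lipase outside the cell (ANGPTL4), pass acyl groups into mitochondria (CPT1A) or restrain the use of glucose carbon by pyruvate dehydrogenase (PDK4).

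The 250 bases before the start of transcription are shown for the 3 genes that changed under siFOXA1.1 and had an entry in the promoter table (RefSeq, GRCh38.p14), because PPARG and FOXA1 are both DNA-binding factors. They lie at chr10:112375018-112375267 on the + strand for ACSL5 (the first of 2 listed starts), chr11:68844278-68844527 on the - strand for CPT1A and chr19:8363905-8364154 on the + strand for ANGPTL4. The ACSL5 gene as a whole is listed from chr10:112374116 on, so its window lies inside the gene, before a later start. Capitals mark AGGTCA in ACSL5 and TATAAA in ANGPTL4, and each sequence runs 5′ to 3′ towards the start.
ACSL5: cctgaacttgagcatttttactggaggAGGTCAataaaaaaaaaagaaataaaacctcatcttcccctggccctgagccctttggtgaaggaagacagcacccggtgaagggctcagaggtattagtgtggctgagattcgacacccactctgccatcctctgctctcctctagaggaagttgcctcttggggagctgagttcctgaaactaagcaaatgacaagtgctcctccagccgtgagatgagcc
CPT1A: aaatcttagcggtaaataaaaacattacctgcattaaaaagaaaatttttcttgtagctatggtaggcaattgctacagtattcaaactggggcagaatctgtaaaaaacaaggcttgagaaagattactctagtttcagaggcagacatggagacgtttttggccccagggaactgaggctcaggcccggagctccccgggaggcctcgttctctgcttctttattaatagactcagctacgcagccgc
ANGPTL4: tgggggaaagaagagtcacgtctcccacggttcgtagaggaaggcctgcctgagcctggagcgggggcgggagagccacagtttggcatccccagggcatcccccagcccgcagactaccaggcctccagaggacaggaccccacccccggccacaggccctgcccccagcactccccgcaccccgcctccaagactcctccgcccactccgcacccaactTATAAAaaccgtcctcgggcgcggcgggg

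Entries were found for 5 of the 7 genes, in 6 windows, and FABP4 and FABP5 were not among them. The full element AGGTCANAGGTCA, searched on both strands, was in 0 of the 6 windows and in 0.0171% of all 35116 promoter windows of that length. A lone AGGTCA, which the full element contains, was in 1 of the 6 (ACSL5) and in 12.1% of all windows. The forkhead motifs TGTTTAC and TGTTTGC were in 0 of the 6, against 2.98% and 3.23% of all windows. TATAAA was in 2 of the 6, ANGPTL4 and, on the other strand, PLIN2, and in 10.7% of all windows. These matches describe the letters of short windows and no binding was measured here.

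Library totals ran from 6622473 to 7604581 counts in RT112 and from 4528513 to 6914951 in SCaBER. A count of 0 allows up to 3 counts, which is 0.394 to 0.453 CPM in RT112 and 0.434 to 0.662 CPM in SCaBER, for counting error only. The lines matched their labels, with summed Luminal markers (12 genes) of 6774 to 7817 CPM in the RT112 controls against 1151 to 1451 in the SCaBER controls, and summed Basal markers (11 genes) of 833 to 1082 against 3430 to 5749. KRT20 and UPK3A, among the Luminal markers, had 0 counts in the controls of both lines. Of the 7 adipocyte markers in the table, ADIPOQ, CIDEA and PCK1 had 0 counts in all 16 libraries, and LEP, PLIN1 and CIDEC had at most 15, 12 and 17. LIPE, the hormone-sensitive lipase, had 6 to 159 counts in RT112 and at most 1 in SCaBER, and rose under RT112 siFOXA1.1 by 2.13 on the log2 scale (adjusted p = 0.0183). The summed adipocyte markers were at 5.86 to 25.2 CPM in those libraries and at 2.36 to 6.31 CPM in the RT112 controls. The mitochondrial share of counts was 25.7 to 28.2% in the RT112 siFOXA1.1 libraries and 17.99 to 21.2% in the other 6 RT112 libraries. The 2 SCaBER siFOXA1.1 libraries differed from each other more than any other replicate pair (chi-square per degree of freedom 38.8, against 8.56 to 24.5 for the others). Whether either of these played a part in the results was not tested, and the SCaBER values are also given without each of those libraries.

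FOXA1 itself stood at 35.0 and 29.4 CPM in RT112 siControl.1, 18.2 and 28.4 in siControl.2, 1.32 and 3.24 in siFOXA1.1 and 9.18 and 16.0 in siFOXA1.2. All 4 siFOXA1 libraries lay below the controls, with a fall of 3.44 on the log2 scale for siFOXA1.1 (SE 0.47, adjusted p = 2.19e-05), and a log2 difference of -1.099 for siFOXA1.2 that did not pass (SE 0.39, adjusted p = 0.205). In SCaBER, FOXA1 had 3, 4, 15 and 9 counts in the controls and at most 6 in the siFOXA1 libraries, too few to measure a knock-down.

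**Figure D1:**
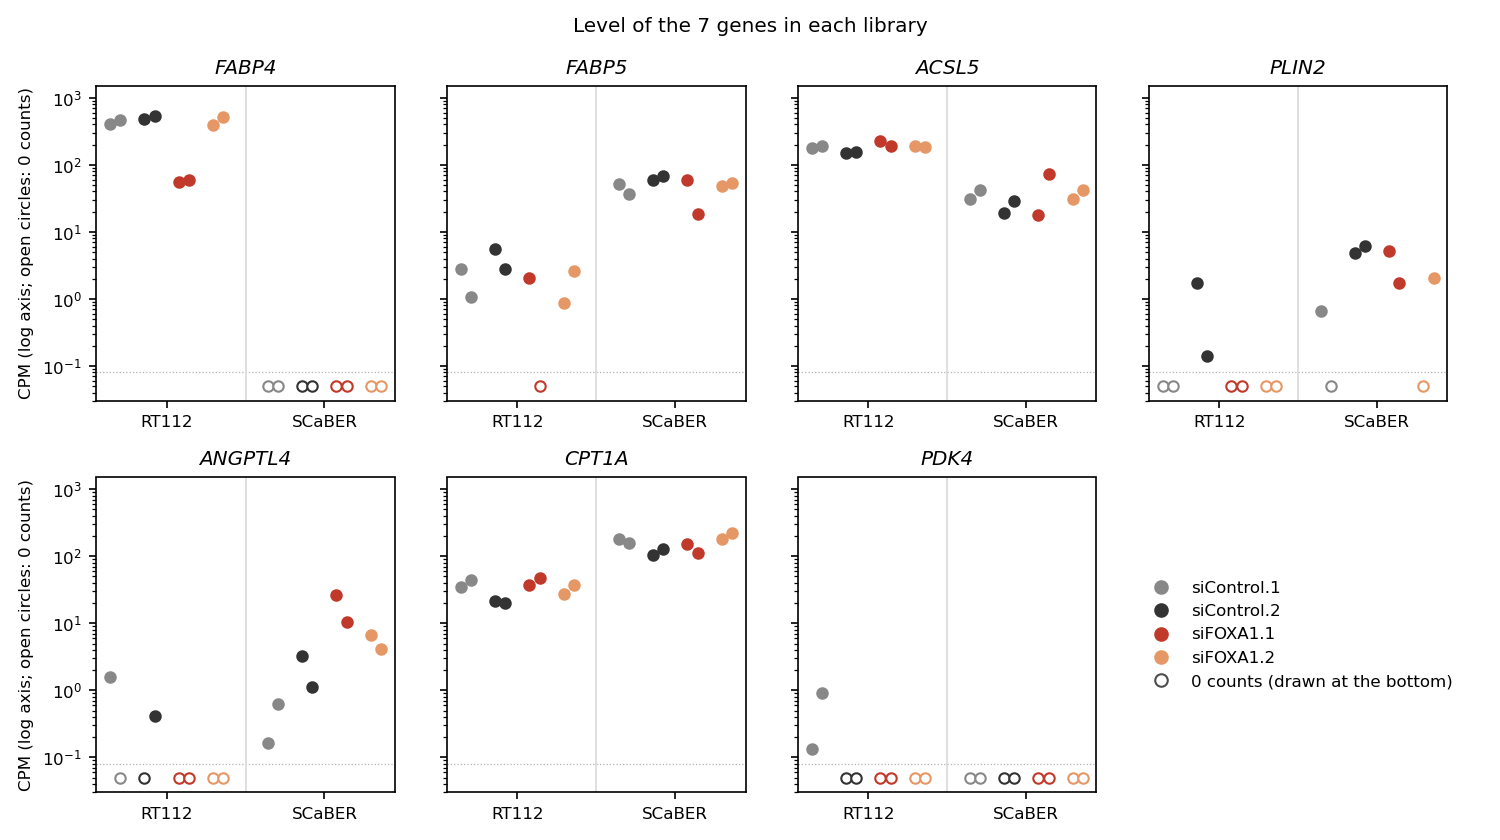
CPM of each of the 7 genes (log axis) in the 16 libraries, 1 point per library, coloured by siRNA and grouped by cell line; open circles at the bottom are libraries with 0 counts. FABP4 is low in the RT112 siFOXA1.1 libraries (56.1 and 60.1 CPM) and at 0 in SCaBER, and ANGPTL4 is higher in all 4 SCaBER siFOXA1 libraries than in any SCaBER control.

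Under siControl some of the 7 genes were higher in RT112 and some were higher in SCaBER. FABP4 was among the abundant transcripts of RT112 and was not detected in SCaBER, ACSL5 was also higher in RT112, and FABP5 and CPT1A were higher in SCaBER. PLIN2, ANGPTL4 and PDK4 were near the detection limit in both lines. In edgeR's quasi-likelihood test, adjusted over all genes, 43.4% of all genes tested differed between the lines (21.2% higher and 22.2% lower in RT112), among them FABP4, FABP5, ACSL5 and CPT1A. ACSL5 and CPT1A reached the low-count filter in the controls of both lines, while FABP4 passed it through RT112 alone and FABP5 through SCaBER, so that nothing is read from the number of the 7 genes called.

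FABP4, the fatty acid carrier of fat cells and a classical PPARG target, had 404 and 472 CPM in RT112 siControl.1 and 478 and 530 in siControl.2. It had 0 counts in all 8 SCaBER libraries. The RT112 controls were therefore at least 890-fold higher than the mean SCaBER floor of 0.529 CPM (3 counts per library). 

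FABP5, the epidermal member of that family, showed the opposite order. It had 51.4 and 37.1 CPM in SCaBER siControl.1 and 59.7 and 68.7 in siControl.2, against 2.76, 1.06, 5.59 and 2.78 in the RT112 controls. The log2 difference of RT112 minus SCaBER was -4.13 (SE 0.39). FABP5 reached the cutoff of the filter in all 4 SCaBER controls and in 3 of the 4 RT112 controls. It was thus tested because of SCaBER, where it was high, and nothing is read from its p-value. FABP5 has many processed copies in the genome, and the 14 entries of such copies in the table held at most 5 counts in any library. Reads that map equally well to several places were not resolved here.

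ACSL5, which joins coenzyme A to long-chain fatty acids, had 177, 192, 152 and 154 CPM in the RT112 controls and 30.6, 42.5, 18.8 and 28.7 in the SCaBER controls (log2 difference 2.50, SE 0.22, adjusted p = 3.20e-07). CPT1A, the gate for entry of long-chain acyl groups into mitochondria, had 34.7, 43.8, 21.3 and 20.2 CPM in the RT112 controls and 184, 156, 103 and 129 in the SCaBER controls (log2 difference -2.23, SE 0.27, adjusted p = 7.89e-06). Neither gene overlapped between the lines. Taken 1 at a time, FABP4, FABP5, ACSL5 and CPT1A each reached 0.0286 in an exact two-sided permutation test on CPM, the smallest p that 4 against 4 libraries can give, among 7 such tests. The share of all genes that reach it was not computed, and 43.4% of all genes differed between the lines in edgeR. Nothing is therefore read from the number of genes that reached it.

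PLIN2, the common droplet coat protein, had 0, 0, 1.73 and 0.139 CPM in the RT112 controls and 0.666, 0, 4.87 and 6.18 in the SCaBER controls (exact permutation p = 0.257). ANGPTL4 had 1.58, 0, 0 and 0.417 CPM in RT112 and 0.166, 0.623, 3.25 and 1.104 in SCaBER (exact permutation p = 0.400). PDK4 was seen with 1 and 6 counts in the RT112 siControl.1 libraries and with 0 in the other 14 libraries. For these 3 genes a difference between the lines was not detectable at this depth.

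Per length, on the TPM scale, the order in the RT112 controls was FABP4 (662 ± 88.3, SD, n = 4), ACSL5 (77.8 ± 6.37), CPT1A (8.87 ± 3.08) and FABP5 (2.91 ± 1.87), with no overlap between neighbours. In the SCaBER controls it was FABP5 (66.6 ± 16.0), CPT1A (55.6 ± 13.4), ACSL5 (18.3 ± 6.35), PLIN2 (1.47 ± 1.54) and ANGPTL4 (1.32 ± 1.37). FABP5 and CPT1A did not differ beyond their spread there, nor did PLIN2 and ANGPTL4. Because 3′ libraries yield about the same number of reads for short and long transcripts, dividing by length favours the short FABP transcripts, and in CPM the SCaBER controls held more CPT1A (143 ± 34.8) than FABP5 (54.2 ± 13.4).

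Under siFOXA1.1 in RT112, FABP4 fell 7.36-fold, while ACSL5 and CPT1A rose modestly. Of the 4 genes tested, 3 passed the threshold (2 higher, 1 lower), where 32.6% of all genes tested did (15.6% higher, 17.0% lower). The median log2 change of the 4 genes was -0.44, against -0.01 over all genes. It falls between FABP5 (-1.34, at low counts and not called) and ACSL5 (0.45, called higher), so it does not describe a shared fall. Under siFOXA1.2 none of the 4 passed, where 2.04% of all genes did (1.04% higher, 1.00% lower), with 0 also at an unadjusted p under 0.05, and 0 by DESeq2 and by limma.

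FABP4 had 56.1 and 60.1 CPM in the siFOXA1.1 libraries (383 and 408 counts), against 404 to 530 CPM in the 4 controls (3069 to 3811 counts). The 2 libraries lay far below every control, and the fall was 2.88 on the log2 scale, 7.36-fold (SE 0.15, adjusted p = 2.27e-10). Within batches 1 and 2 the log2 difference was -2.96 and -3.05. In the siFOXA1.2 libraries FABP4 had 396 and 523 CPM, inside the range of the controls but for the lower of the pair (log2 difference -0.01, SE 0.12, adjusted p = 0.987). The siFOXA1 siRNAs differed from each other by -2.87 (siFOXA1.1 minus siFOXA1.2, SE 0.16, adjusted p = 2.08e-09), and FABP4 was 1 of 4 genes tested that did so, where 28.1% of all genes did.

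ACSL5 had 228 and 191 CPM under siFOXA1.1 and 191 and 185 under siFOXA1.2, against 152 to 192 in the controls. The siFOXA1.1 group thus overlapped the controls at its lower library. The log2 increase was 0.45 (SE 0.12, adjusted p = 0.00762) under siFOXA1.1, and the difference was 0.18 (adjusted p = 0.630) under siFOXA1.2. The call was lost without siFOXA1.1 replicate 1 (0.34, adjusted p = 0.102) and against siControl.1 alone (0.28, adjusted p = 0.150). The window shown above with a lone AGGTCA lies before a listed start inside this gene, and which start these cells use was not measured.

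CPT1A had 37.3 and 47.3 CPM under siFOXA1.1 and 27.8 and 37.97 under siFOXA1.2. The controls were themselves split, with 34.7 and 43.8 CPM under siControl.1 and 21.3 and 20.2 under siControl.2. The siFOXA1.1 libraries therefore lay above siControl.2 and within reach of siControl.1. The log2 increase against both controls was 0.71 (SE 0.24, adjusted p = 0.0299), and it was 0.21 against siControl.1 alone (adjusted p = 0.621). The call was also lost on leaving out siControl.1 replicate 1, either siControl.2 library or siFOXA1.1 replicate 2, with adjusted p up to 0.243. Between the 2 control siRNAs the log2 difference was 0.98 (siControl.1 minus siControl.2, SE 0.29, adjusted p = 0.0891).

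None of the 4 genes passed between the RT112 control siRNAs in edgeR, where 2.36% of all genes did. At an unadjusted p under 0.05 there were 2, DESeq2 called 1 (CPT1A) and limma 0. FABP5 had 2.05 and 0 CPM under siFOXA1.1 and 0.874 and 2.595 under siFOXA1.2, at most 19 counts (log2 differences -1.34 and -0.68, adjusted p = 0.466 and 0.913). PLIN2, ANGPTL4 and PDK4 had 0 counts in all 4 RT112 siFOXA1 libraries and at most 13, 12 and 6 in the RT112 controls, so a fall was not detectable at this depth.

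Scaling bore on the small increases. With library totals alone the median of all genes under siFOXA1.1 in RT112 moved to -0.14, and with limma on TPM to -0.31. The genes called over the whole table were then 1452 higher and 2482 lower, or 780 higher and 2826 lower, against 1870 higher and 2033 lower as reported. In SCaBER siFOXA1.1 limma called 211 higher and 372 lower, against 532 and 570 in edgeR. On those scales ACSL5 changed by 0.32 (adjusted p = 0.0565) and 0.12 (adjusted p = 0.5004), and CPT1A by 0.57 (adjusted p = 0.0778) and 0.33 (adjusted p = 0.262). Relative to the median of all genes the ACSL5 difference was 0.46, 0.46 and 0.43 under the 3 scalings, that of CPT1A 0.72, 0.71 and 0.64, and that of FABP4 -2.87, -2.87 and -2.88.

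**Figure D2:**
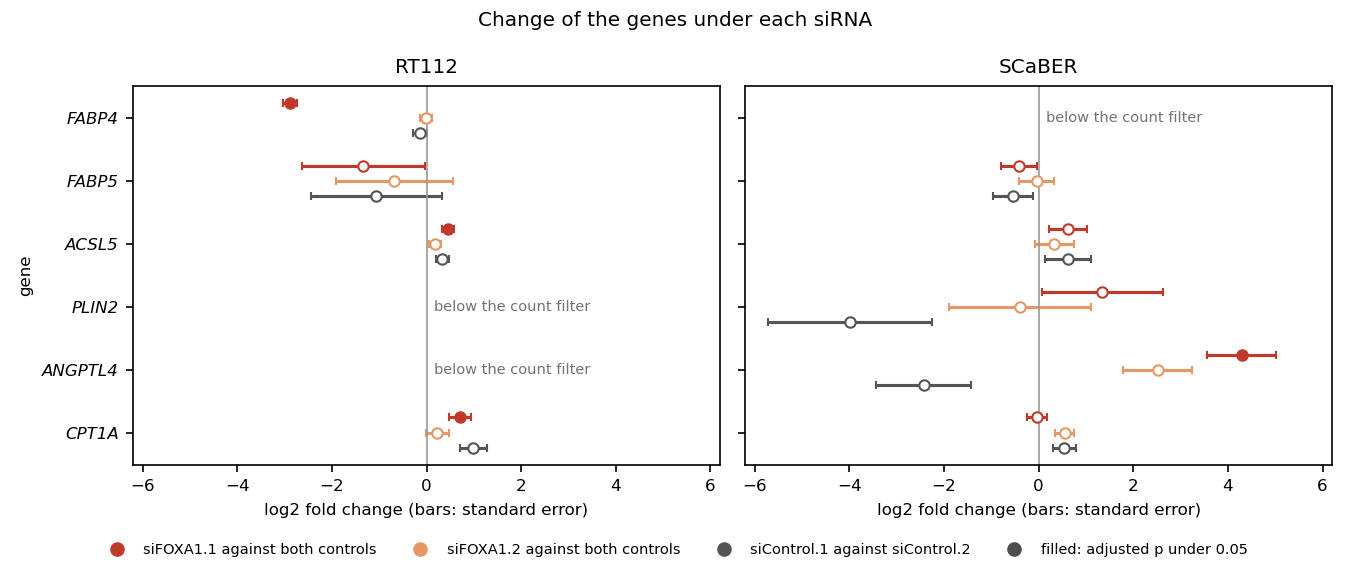
Log2 fold change (points) with its standard error (bars) of the genes past the count filter, for siFOXA1.1, siFOXA1.2 and between the control siRNAs, in RT112 (left) and SCaBER (right); filled points have an adjusted p under 0.05 in edgeR. Filled points are FABP4 (-2.88), ACSL5 (0.45) and CPT1A (0.71) in RT112 and ANGPTL4 (4.29) in SCaBER, all under siFOXA1.1.

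Under siFOXA1.1 in SCaBER, ANGPTL4 rose from near the detection limit and was the 1 gene of 5 tested that passed, where 9.26% of all genes tested did (4.47% higher, 4.79% lower). It reached the low-count filter in all 4 siFOXA1 libraries and in 1 of the 4 controls, so it was tested because of the group in which it was high, and nothing is read from the count of 1. Under siFOXA1.2 none of the 5 passed in edgeR, where 0.0420% of all genes did, with 2 at an unadjusted p under 0.05 and 0 by DESeq2 and by limma.

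ANGPTL4, a secreted inhibitor of lipoprotein lipase, had 26.1 and 10.6 CPM under siFOXA1.1 (138 and 73 counts) and 6.79 and 4.12 under siFOXA1.2 (44 and 26 counts). The controls had 0.166, 0.623, 3.25 and 1.104 CPM, from 1, 4, 20 and 5 counts. They were themselves split, with means of 0.395 CPM under siControl.1 and 2.17 under siControl.2. Their log2 difference was -2.43 (siControl.1 minus siControl.2, SE 1.00, adjusted p = 0.705, unadjusted p = 0.0290 in edgeR). All 4 siFOXA1 libraries lay above all 4 controls. The log2 increase under siFOXA1.1 was 4.29 (SE 0.72, adjusted p = 0.00184), and within batches 1 and 2 it was 4.08 and 3.04 on log2(CPM + 0.5). Over the 8 alternatives that kept every library the increase was 3.07 to 5.51, with adjusted p up to 0.0468. With 1 library left out it was 3.45 to 4.86. All these fits drew on the same few control counts, so they are not separate support, and the size rests on those counts. Under siFOXA1.2 the difference was 2.52 (SE 0.73, adjusted p = 0.523, unadjusted p = 0.00364 in edgeR). The 2 siFOXA1 siRNAs differed by 1.77 (SE 0.81, adjusted p = 0.256).

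With both siRNAs of a target pooled, ANGPTL4 in SCaBER was 11.9 ± 9.85 CPM against 1.28 ± 1.36 (SD, n = 4 each; exact two-sided permutation p = 0.0286, the smallest the design allows, in 5 such tests). The pooled edgeR fit, in which 0.00840% of all genes passed, called 0 of the 5 genes (ANGPTL4 adjusted p = 0.400), with 1 at an unadjusted p under 0.05, 1 by DESeq2 and 0 by limma. In RT112 the pooled fit, with 0.108% of all genes called, called 0 of 4 by edgeR, DESeq2 and limma, and 0 at an unadjusted p under 0.05. FABP4 there was 259 ± 238 CPM under pooled siFOXA1 and 471 ± 51.8 under pooled siControl (exact permutation p = 0.171), the wide spread being that between the 2 siRNAs.

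In SCaBER FABP5 had 59.5 and 18.2 CPM under siFOXA1.1 and 48.3 and 53.9 under siFOXA1.2, against 37.1 to 68.7 in the controls. ACSL5 had 17.8 and 71.9 CPM under siFOXA1.1 and 30.5 and 42.5 under siFOXA1.2, against 18.8 to 42.5 in the controls. For both genes the 2 siFOXA1.1 libraries lay on opposite sides of the control mean, and neither passed (log2 differences -0.41 and 0.62, adjusted p = 0.581 and 0.400). Without siFOXA1.1 replicate 1 the differences were -1.55 (adjusted p = 0.00679) for FABP5 and 1.29 (adjusted p = 0.0142) for ACSL5, and without replicate 2 they were 0.23 and -0.65. These values are thus set by which of 2 unlike libraries is kept.

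CPT1A in SCaBER had 154 and 112 CPM under siFOXA1.1 and 181 and 223 under siFOXA1.2, against 184, 156, 103 and 129 in the controls (log2 differences -0.04 and 0.55, adjusted p = 0.938 and 0.766). PLIN2 had 5.11 and 1.74 CPM under siFOXA1.1 and 0 and 2.06 under siFOXA1.2, within the range of the controls (log2 differences 1.35 and -0.40, adjusted p = 0.601 for the first). Between the SCaBER control siRNAs 0 of the 5 genes passed by edgeR, DESeq2 and limma, where 0.0672% of all genes did by edgeR, and 3 had an unadjusted p under 0.05. Between siFOXA1.1 and siFOXA1.2, 0 of 5 passed by edgeR, DESeq2 and limma, where 4.85% of all genes did by edgeR, and 2 had an unadjusted p under 0.05.

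Whether the response differed between the lines was tested as an interaction over all 16 libraries. For siFOXA1.1, 0 of the 6 genes tested passed in edgeR, where 3.14% of all genes did, with 2 at an unadjusted p under 0.05, 1 by DESeq2 and 2 by limma. For siFOXA1.2, 0 of 6 passed by edgeR, DESeq2 and limma, where 0.0438% of all genes did by edgeR, with 1 at an unadjusted p under 0.05. The FABP4 responses could not be compared, since SCaBER had no counts of the gene. Nor could those of PLIN2, which had 0 counts in all 4 RT112 siFOXA1 libraries. Neither gene could pass in edgeR, so nothing is read from the 0 of 6. ANGPTL4 had an interaction adjusted p of 0.0669 in edgeR for siFOXA1.1, 0.00929 in DESeq2 and 0.0185 in limma, with the RT112 siFOXA1 libraries listed at 0, so that no size of the difference is given. For CPT1A the siFOXA1.1 change in RT112 minus that in SCaBER was 0.73 (SE 0.30, adjusted p = 0.220), and for ACSL5 it was -0.20 (adjusted p = 0.944).

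**Figure D3:**
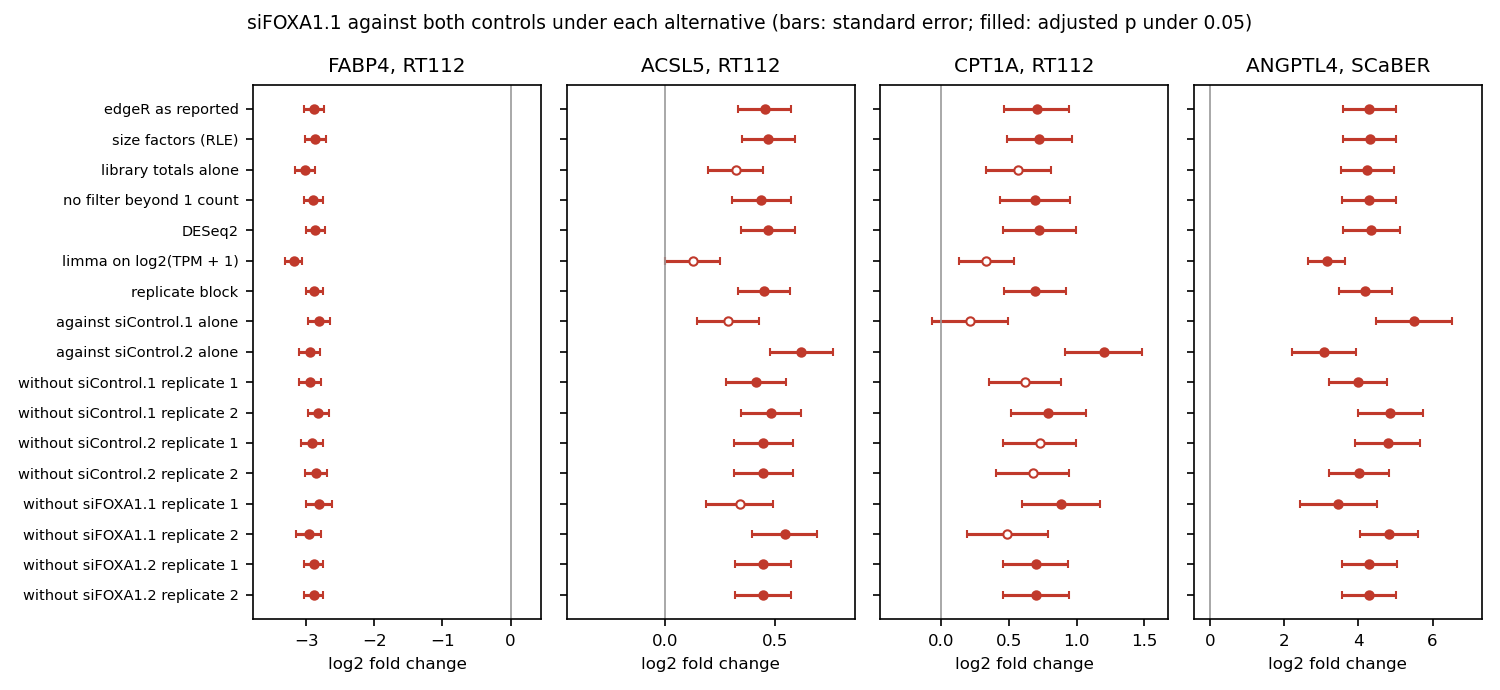
Log2 fold change under siFOXA1.1 against both controls (points, with standard error bars) of the 4 calls, 1 panel per gene and line, for the reported edgeR fit, 8 alternatives and each library left out; filled points have an adjusted p under 0.05. FABP4 (-3.18 to -2.81) and ANGPTL4 (3.07 to 5.51) are filled throughout, ACSL5 in 7 of 8 leave-one-out fits and 5 of 8 others, and CPT1A in 4 of 8 and 5 of 8.

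Of the 6 PPAR and RXR receptor genes, 4 passed the filter in RT112 and 3 of them fell under siFOXA1.1, PPARG, PPARA and RXRA, where 17.0% of all genes fell. PPARG had 38.1 and 49.9 CPM under siFOXA1.1, against 77.8, 70.2, 78.6 and 85.7 in the controls and 76.2 and 67.2 under siFOXA1.2. Its siFOXA1.1 libraries lay below every other RT112 library, a fall of 0.69 on the log2 scale (SE 0.19, adjusted p = 0.00845) that did not pass without siFOXA1.1 replicate 1 (-0.49, adjusted p = 0.104). Against siFOXA1.2 the difference was -0.58 (SE 0.21, adjusted p = 0.0461), a call that ended in 7 of the 8 fits that left out a library and with DESeq2's size factors in edgeR.

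RXRA, a partner of all PPARs, had 238 and 153 CPM under siFOXA1.1, against 348 to 376 in the controls and 398 and 349 under siFOXA1.2 (a fall of 0.74, SE 0.14, adjusted p = 0.000488). PPARA, better known from liver and muscle, had 11.4 and 8.84 CPM against 50.8, 36.5, 26.1 and 20.3 in the controls (a fall of 1.52, SE 0.35, adjusted p = 0.00240). PPARA did not pass against siControl.2 alone (-1.03, adjusted p = 0.0508). PPARD changed by -0.37 (SE 0.37, adjusted p = 0.490). Under siFOXA1.2 in RT112, and under either siRNA in SCaBER, 0 of the 4 passed by edgeR, DESeq2 or limma, and 0 had an unadjusted p under 0.05. The Luminal markers moved in the same libraries, with 8 of the 10 tested falling under RT112 siFOXA1.1 and 0 rising (summed level 4487 to 5008 CPM, against 6774 to 7817 in the controls), where 17.0% of all genes fell. FOXA1, the target of the siRNA, is among the 10 tested and among the 8 that fell. Under RT112 siFOXA1.2, where neither FABP4 nor a receptor passed, 3 of the 10 fell and 0 rose (5375 to 5533 CPM), and 1.00% of all genes fell. Between the RT112 control siRNAs 3 of the 10 also passed, all higher in siControl.1, where 2.36% of all genes passed. The part of these markers in the receptor and FABP4 values was not tested.

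RXRB was listed at 0 in all 16 libraries, which does not show that it is not expressed, and RXRG had at most 12 counts. In SCaBER PPARG had 15.5 and 19.96 CPM under siFOXA1.1 and 12.5, 27.0, 22.6 and 29.1 in the controls (log2 difference -0.31, SE 0.38, adjusted p = 0.694). The interaction with line did not pass for PPARG (-0.39, SE 0.39, adjusted p = 0.714), PPARA (-1.41, adjusted p = 0.194) or RXRA (-0.60, adjusted p = 0.320). Under siControl all 4 receptor genes tested were called higher in RT112, where 21.2% of all genes were. RXRA was higher there (log2 difference 1.26, SE 0.17, adjusted p = 2.22e-05), as were PPARG (1.79, SE 0.23, adjusted p = 1.92e-05), PPARD (1.16, adjusted p = 0.00441) and PPARA (0.86, adjusted p = 0.0483), whose call ended in 7 of its alternatives.

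**Figure D4:**
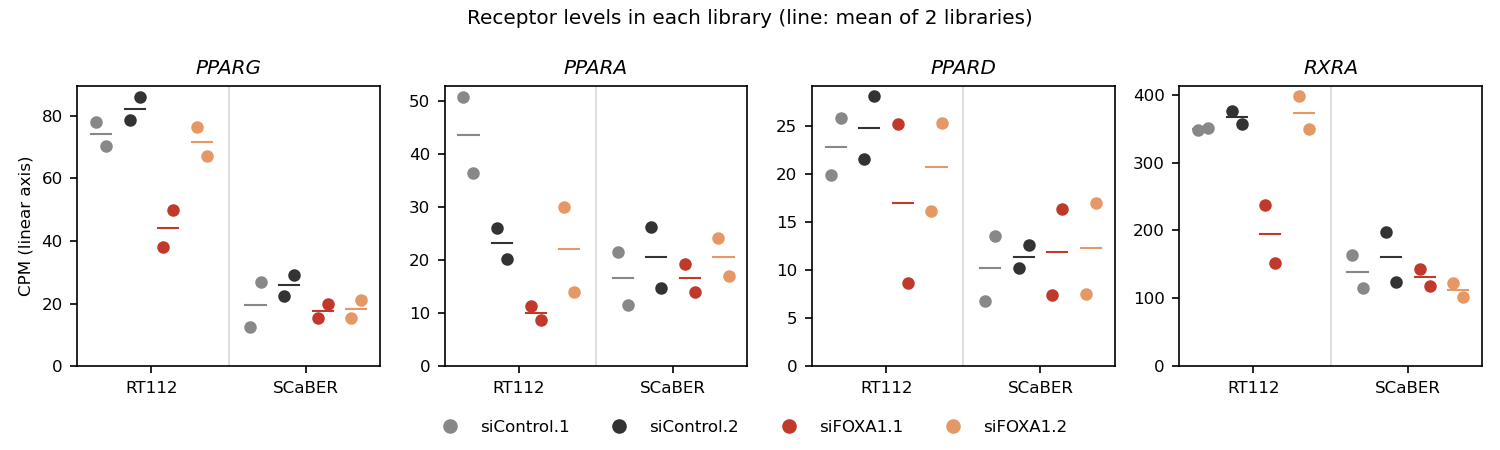
CPM (linear axis) of PPARG, PPARA, PPARD and RXRA in the 16 libraries, 1 point per library with a line at the mean of each siRNA, grouped by cell line. In RT112 the siFOXA1.1 libraries of PPARG (38.1 and 49.9), PPARA (11.4 and 8.84) and RXRA (238 and 153) lie below all 4 controls; no receptor does so in SCaBER.

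Around the 7 genes, 113 other genes in 8 lists of PPAR and fatty acid metabolism were counted. In RT112 siFOXA1.1, 37 of the 86 tested passed (43.0%; 16 higher, 21 lower), beside 32.6% of all genes. In RT112 siFOXA1.2, 6 of 86 passed (6.98%; 3 higher, 3 lower), beside 2.04% of all genes, and between the RT112 controls 5 did (5.81%), beside 2.36%. In SCaBER siFOXA1.1, 10 of 82 passed (12.2%; 5 higher, 5 lower), beside 9.26% of all genes. Both directions were present in 6 of the 8 lists in RT112 siFOXA1.1. Of the list genes described here for RT112 siFOXA1.1, NCOA2, VLDLR, PDHX, ECI1 and CRAT lost the call in at least 1 alternative and the others did not. Of those described for SCaBER siFOXA1.1, ACOT7 alone passed under every alternative, and of the 6 named for RT112 siFOXA1.2 none did, each being lost in 7 to 10 alternatives.

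Among PPAR coregulators 2 rose and 4 fell of 11 in RT112 siFOXA1.1. The repressive partner NRIP1 fell by 0.94 (adjusted p = 1.44e-05) on the log2 scale, and the coactivator NCOA2 rose by 0.97 (adjusted p = 0.00380). Under siFOXA1.2 in RT112 the coactivator NCOA3 rose by 0.51 (adjusted p = 0.0454), and in SCaBER siFOXA1.1 PPRC1, of the PGC-1 family, fell by 1.09 (adjusted p = 0.0470), a call lost in 11 of 16 alternatives.

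Of fatty acid binding and uptake genes, 2 of 8 fell in RT112 siFOXA1.1 and 0 rose. The fatty acid transporter SLC27A4 fell by 2.76 (adjusted p = 0.00183), from 11.3 ± 5.59 CPM in the controls to 1.40 ± 0.733. The acyl-CoA binding protein DBI fell by 0.54 (adjusted p = 8.79e-05), a gene that also differed between the RT112 control siRNAs by 0.54 (adjusted p = 0.00489). CAV1, a caveolar protein, rose by 0.59 under RT112 siFOXA1.2 (adjusted p = 0.0491) and fell by 0.89 under SCaBER siFOXA1.1 (adjusted p = 0.00677).

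Of the acyl-CoA synthetases and thioesterases, where ACSL5 belongs by function, 2 rose and 3 fell of 10 in RT112 siFOXA1.1. The mitochondrial acetyl-CoA synthetase ACSS1 rose by 2.92 (adjusted p = 0.000121), from 5.19 ± 4.43 to 30.6 ± 2.47 CPM. The thioesterases ACOT7 and ACOT13, which split acyl-CoA again, fell by 1.65 (adjusted p = 8.02e-06) and by 1.53 (adjusted p = 8.32e-05). ACOT7 also differed between the RT112 controls by 0.89 (adjusted p = 0.0350). In SCaBER siFOXA1.1 ACOT7 fell by 1.81 (adjusted p = 0.000806) and ACSL4, a synthetase that prefers polyunsaturated fatty acids, rose by 1.17 (adjusted p = 0.00388).

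Of lipid droplet and lipolysis genes, the group of PLIN2, 5 rose and 5 fell of 16 in RT112 siFOXA1.1. The droplet coat protein PLIN3 rose by 1.03 (adjusted p = 3.38e-06), from 153 ± 8.14 to 285 ± 4.72 CPM, the phosphatidate phosphatase LPIN1 by 1.65 (adjusted p = 4.87e-06) and PNPLA3 by 2.16 (adjusted p = 0.000130). In SCaBER siFOXA1.1 PLIN3 rose by 0.81 (adjusted p = 0.0173) and LPIN1 by 0.93 (adjusted p = 0.0140), while HILPDA, a hypoxia-induced lipolysis inhibitor, fell by 1.31 (adjusted p = 0.0182). Under RT112 siFOXA1.2 PLIN3 instead fell by 0.52 (adjusted p = 0.0424), and the lipase PNPLA2 fell by 1.07 (adjusted p = 0.0319). Of the lipoprotein lipase group of ANGPTL4, 1 of 3 passed in RT112 siFOXA1.1, and 0 of 2 in SCaBER. It was the receptor VLDLR, which rose by 1.58 (adjusted p = 0.0400), a call lost in 10 of 16 alternatives.

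Of pyruvate dehydrogenase subunits, kinases and phosphatases, the group of PDK4, 3 rose and 2 fell of 11 in RT112 siFOXA1.1. The kinase PDK3 fell by 1.47 (adjusted p = 0.000405) and, under siFOXA1.2, by 1.06 (adjusted p = 0.0446, and 0.0517 with the replicate block). The subunit DLAT fell by 1.87 (adjusted p = 0.000466), PDHX rose by 1.36 (adjusted p = 0.00218), and the phosphatase PDP1 rose by 1.39 under siFOXA1.2 (adjusted p = 0.0446). In SCaBER 0 of 11 passed under siFOXA1.1.

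Of mitochondrial fatty acid oxidation genes, downstream of CPT1A, 2 rose and 4 fell of 15 in RT112 siFOXA1.1. The dehydrogenase HADH fell by 1.96 (adjusted p = 0.00257), from 28.3 ± 12.2 to 6.23 ± 5.89 CPM, ECI1 fell by 0.95 (adjusted p = 0.00188) and ACADVL rose by 0.87 (adjusted p = 6.85e-05). ECI1 and ACADVL also differed between the RT112 control siRNAs, by 0.96 (adjusted p = 0.0326) and 0.64 (adjusted p = 0.0433). In SCaBER siFOXA1.1 HADH fell by 1.27 (adjusted p = 0.0393), a call lost in 12 of 16 alternatives and in all 8 fits that left out a library, and the reductase DECR1 rose by 1.31 (adjusted p = 0.0154). In the peroxisomal list, the carnitine acetyltransferase CRAT fell by 2.58 in RT112 siFOXA1.1 (adjusted p = 0.0145).

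**Figure D5:**
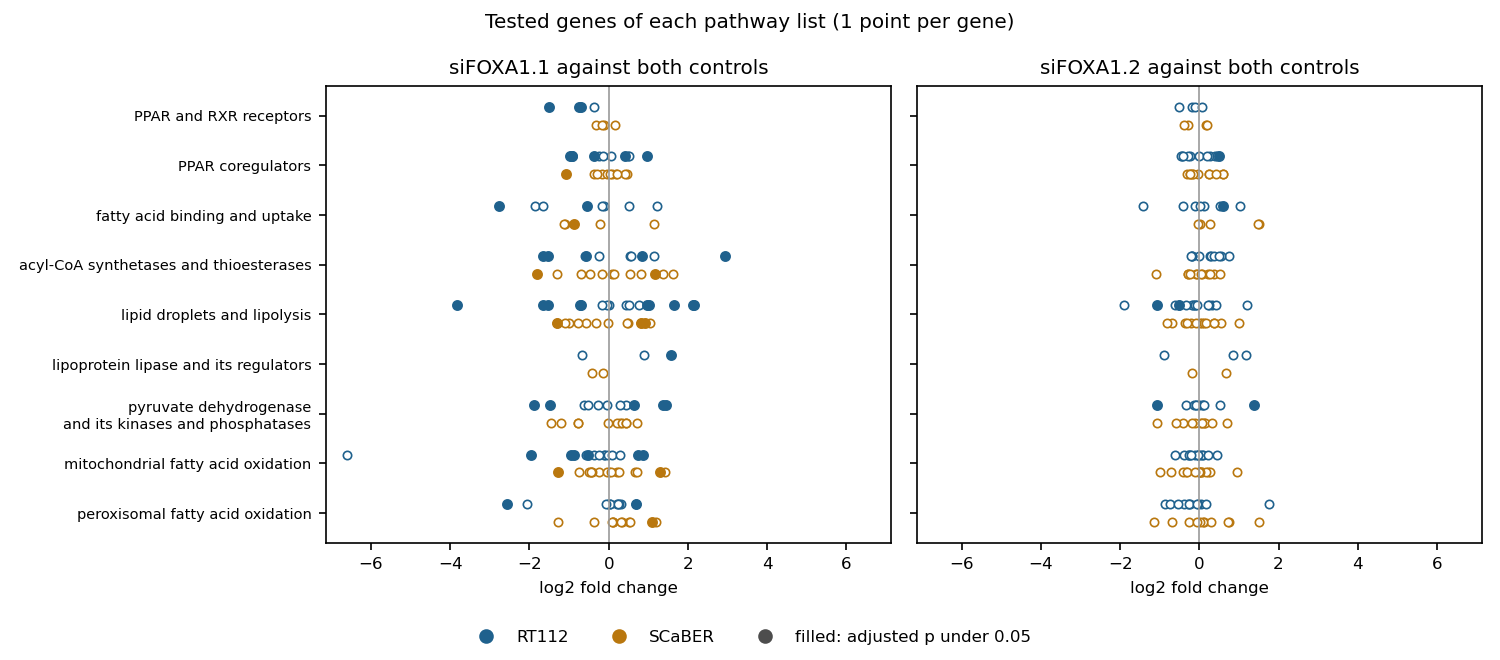
Log2 fold change of every tested gene in the receptor list and the 8 pathway lists (1 point per gene) under siFOXA1.1 (left) and siFOXA1.2 (right), in RT112 and SCaBER; filled points have an adjusted p under 0.05. Filled points lie on both sides of 0 in most lists under siFOXA1.1 in RT112, and few points are filled under siFOXA1.2.

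Genes whose level moved most like a given gene were sought among 11204 genes over the 16 libraries, with each line centred on its own mean. For FABP5 they were RNASEH1-AS1 (Pearson r 0.90) and BIVM (0.85), for ACSL5 ALKBH6 (0.92) and NCSTN (0.89), and for CPT1A GDE1 (0.87) and PRDX1 (0.82). FABP4 and ANGPTL4 passed the filter in 1 line only and were outside this search. Over the 8 RT112 libraries FABP4 was most like HMMR and C21orf58 (Pearson r 0.998 and 0.996), a search added after its values were seen. That likeness rests on the 2 low siFOXA1.1 libraries against the other 6. These are descriptions over libraries that share cell line, depth and siRNA.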

How the data were processed

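RNA from RT112 and SCaBER cells was made into QuantSeq FWD 3′ mRNA libraries and sequenced as single reads. Per the file headers and labels, the authors trimmed reads with TrimGalore 0.6.2, aligned them with STAR 2.6.1a to hg38 and counted genes of GENCODE 29. The study's methods name hg19, and no coordinate from the tables is used here. The deposited counts are raw, and the deposited TPM values were normalised by the authors for length and depth. No sample column was left unused.

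Counts were tested with edgeR 4.0.16 (R 4.3.3; TMM scaling, filterByExpr by target, quasi-likelihood F test, Benjamini-Hochberg adjustment over all genes tested, threshold 0.05), with 1 mean per siRNA over the 8 libraries of a line. Every adjusted p is from edgeR unless DESeq2 (1.42.0) or limma (3.58.1, log2(TPM + 1), mean TPM of at least 1) is named. Single values were compared by exact permutation of CPM. A log2 difference within a batch is on log2(CPM + 0.5). The alternatives were other scalings, no filter beyond 1 count, DESeq2, limma, a batch block, each control siRNA alone and each library left out.

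Labels name the replicate number as an experiment batch, so same-numbered libraries were treated as paired in an alternative with a replicate block. Their deviations correlated between -0.018 and 0.014 in RT112 and between 0.019 and 0.200 in SCaBER. Nothing else says that libraries came from separate cultures, so p-values measure the spread between these libraries, which may be technical. No 2 replicate libraries were identical. The fit was tested on simulated data, in which the changed genes had an expected mean of at least 20 counts per library. Of 100 genes changed by 2 on the log2 scale, 83 were recovered in RT112 siFOXA1.1 and 72 in SCaBER siFOXA1.1. Of 100 changed by 1, 53 and 38 were recovered. Changes in genes with fewer counts were not simulated.

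The genes, the lists and the tests were chosen with earlier results of these data known. Named genes were the 7 genes, FOXA1, the PPAR and RXR receptors, up to 3 genes per list and line with the smallest adjusted p under siFOXA1.1, every list gene passing under siFOXA1.2, and the 2 most similar genes (mean of at least 20 counts). Promoter windows came from RefSeq (GRCh38.p14). Protein sequences were not used here, and some genes that the rule would name are not reported here.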

Additional observations from a re-analysis of the deposited data

Results flagged for a closer look

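In 39 sets of 4 libraries (a gene in a line and a target), 4 had a highest library set apart from the other 3 by more than Dixon's 95% limit. They were ACSL5 in RT112 siFOXA1.1 replicate 1 (228 CPM, against 185 to 191 in the other siFOXA1 libraries), PLIN2 in RT112 siControl.2 replicate 1 (1.73 CPM), PDK4 in RT112 siControl.1 replicate 2 (0.906 CPM) and RXRG in SCaBER siFOXA1.2 replicate 1 (1.85 CPM). The last 3 rest on 13, 6 and 12 counts. The ACSL5 library is the one whose omission ended the siFOXA1.1 call.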

How the results depend on the processing

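Depth limits PLIN2, ANGPTL4 and PDK4 in RT112, where counts were 0 to 13, and FABP4 in SCaBER, and the 2 unlike SCaBER siFOXA1.1 libraries limit what that line shows. FABP4 in RT112 and ANGPTL4 in SCaBER passed under siFOXA1.1 in each of the 8 alternatives that kept every library. The ANGPTL4 fits all drew on the same few control counts, so they are not separate support. The cause of the changes below was not tested. The count of the 7 genes called under RT112 siFOXA1.1, 3 as reported, was 1 with library totals, limma or siControl.1 alone. It became 1 instead of 0 between the RT112 controls with DESeq2, in the pooled SCaBER comparison without a filter or with DESeq2, and for the siFOXA1.1 interaction without a filter or with DESeq2 (2 with limma). With each library left out, the count ran from 0 to 1 between the RT112 controls (1 without RT112 siFOXA1.1 replicate 1), from 1 to 3 in SCaBER siFOXA1.1 and from 0 to 2 between the SCaBER siFOXA1 siRNAs (the most without SCaBER siFOXA1.1 replicate 1), and from 0 to 1 for the siFOXA1.1 interaction (1 without SCaBER siFOXA1.1 replicate 2 or RT112 siControl.1 replicate 2). The differences that changed sign were not called as reported. Against siControl.1 alone, FABP4 and CPT1A under RT112 siFOXA1.2 had log2 differences of 0.057 and -0.27, and FABP5 and PLIN2 under SCaBER siFOXA1.2 of 0.23 and 1.60. Against siControl.2 alone, PLIN2 and CPT1A under SCaBER siFOXA1.1 had -0.65 and 0.23. With limma, ACSL5 between the RT112 siFOXA1 siRNAs had -0.030. With each library left out, the log2 differences ran from -0.23 to 0.17 for FABP4 and from -0.022 to 0.43 for CPT1A under RT112 siFOXA1.2, from -6.64 to 0.32 for FABP5 between the RT112 siFOXA1 siRNAs, and from -1.30 to 0.18 for PPARD under RT112 siFOXA1.1. In SCaBER siFOXA1.1 they ran from -1.55 to 0.23 (FABP5), -0.65 to 1.29 (ACSL5), -0.33 to 0.21 (CPT1A) and -0.54 to 0.0028 (PPARG), under siFOXA1.2 from -0.16 to 0.10 (FABP5) and -6.05 to 1.63 (PLIN2), and between the siFOXA1 siRNAs from -1.51 to 0.27 (FABP5) and -0.98 to 0.96 (ACSL5). The replicate block changed no call among the 7 genes (3 under RT112 siFOXA1.1), and among the named list genes ended only that of PDK3 under RT112 siFOXA1.2. Over all genes, edgeR, the block and DESeq2 called 13, 0 and 168 in the pooled RT112 comparison, 1, 0 and 37 in the pooled SCaBER one, 8, 35 and 75 between the SCaBER controls, 5, 7 and 40 under SCaBER siFOXA1.2, 577, 807 and 966 between the SCaBER siFOXA1 siRNAs, and 6, 7 and 32 for the siFOXA1.2 interaction. EdgeR and DESeq2 called 245 and 430 under RT112 siFOXA1.2, 283 and 476 between the RT112 controls, and 430 and 777 for the siFOXA1.1 interaction. Limma called 54 under RT112 siFOXA1.2, 46 between the RT112 controls, 583 in SCaBER siFOXA1.1 (1102 in edgeR), 224 between the SCaBER siFOXA1 siRNAs and 566 for the siFOXA1.1 interaction, where it called more than edgeR. The split of higher against lower calls moved from 2612 and 2729 to 1619 and 4367 between the lines and from 1563 and 1804 to 643 and 2242 between the RT112 siFOXA1 siRNAs with limma, and from 149 and 134 to 113 and 169 between the RT112 controls with library totals.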
